A study of Homo sapiens with 12 samples.

Results

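Chromosome 10 was followed gene by gene in A375 and CHL1, which are human melanoma cell lines, and in their palbociclib-resistant derivatives A375AR991 and CHL1AR991. Palbociclib inhibits CDK4 and CDK6, the kinases that start the cell cycle. The derivatives were raised in rising palbociclib, for 7 months in A375 and 3 months in CHL1, and were then held at 4 µM. The parental cells are labelled as untreated, all cells grew in supplemented RPMI medium, and the labels give 72 h without drug before RNA extraction. There were 4 groups of 3 libraries. Whether a derivative is a clone or a pool is not stated. The labels do not tie the libraries to separate cultures. The p-values therefore reflect no more than library-to-library spread, part or all of which may be technical. In bulk RNA, fewer cells that express a gene and less RNA of it per cell cannot be told apart.

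The genes described are the protein-coding genes of chromosome 10 that both count tables list, 618 in all. Of these, 17 were left out by name (2 before AP3M1 and 15 from AP3M1 on) and 116 had a mean below 1 CPM (counts scaled to a common library total, not corrected for gene length) in both lines. The remaining 485 members comprised 461 in A375 and 449 in CHL1, with 425 in both lines. They compare with 12572 protein-coding genes of at least 1 CPM in the whole A375 table and 12331 in that of CHL1. The members were split in gene order at AP3M1 on the long arm. From AP3M1 to CYP2E1, the last member, there were 243 members in A375 and 236 in CHL1, and before AP3M1 there were 218 and 213. The stretch and its boundary were chosen by the A375 change itself. The A375 changes of its members are therefore given as a description, and nothing is read from tests of them, while the CHL1 changes, which the choice did not use, were tested for each gene.

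The long arm of chromosome 10 carries regulators of many signalling pathways, among them the IKK kinase gene CHUK and the NF-kB subunit gene NFKB2, the Hedgehog inhibitor SUFU and the WNT transcription factor TCF7L2. Loss of material from this arm is a recurrent event in melanoma in general, and DNA was not analysed here.

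Total counts ran from 25398920 to 29812686 per library. Of the melanocyte lineage markers, SOX10 lay at group means of 308 to 1008 CPM, MITF at 24.9 to 47.7 CPM and S100B at 12.8 to 178 CPM. The pigment cell genes PMEL and MLANA did not exceed 1.03 CPM in any group mean, TYR is not listed for A375 and DCT was at most 0.414 CPM there. In CHL1, DCT was at 42.7 CPM in parental and 18.5 CPM in resistant cells, and TYR at 0.506 and 0.496 CPM. Markers of other cells were low except the keratin KRT14 in A375 (23.1 CPM in parental and 4.57 in resistant cells), the macrophage-associated gene CD68 in A375 (60.8 and 64.7 CPM), the leukocyte gene PTPRC in CHL1 (9.14 and 8.91 CPM) and the fibroblast genes COL1A1 and PDGFRB (at most 6.05 and 8.36 CPM in any group). KRT1 and PECAM1 are listed for neither line. The part of these markers in the changes described here was not tested.

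Promoters were read to show the sequence context in which neighbouring genes were lower together. RefSeq (GRCh38.p14) promoters were found for 209 of the 243 A375 members from AP3M1 on (86.0%) and 188 of the 218 before it (86.2%). The 250 bases before the start held a median of 20 CpG dinucleotides and 64.4% GC in the former and 21 CpG and 66% GC in the latter, against 11 CpG and 58% GC over all 27305 promoters of the same length. Unlike the members, those 27305 were not filtered on gene type or expression, so the difference cannot be read as a trait of chromosome 10. The 3 sequences below were taken from 45 promoters that overlap no annotated exon and belong to members from KCNMA1 on with at least 10 CPM. The first and second have the most and the fewest CpG among members with all resistant A375 libraries below all parental ones, and the last belongs to the gene with the largest opposite difference. They are printed 5′ to 3′ on the strand of the gene with every CpG in capitals.
EBF3, a transcription factor gene, minus strand, chr10:129964275-129964524: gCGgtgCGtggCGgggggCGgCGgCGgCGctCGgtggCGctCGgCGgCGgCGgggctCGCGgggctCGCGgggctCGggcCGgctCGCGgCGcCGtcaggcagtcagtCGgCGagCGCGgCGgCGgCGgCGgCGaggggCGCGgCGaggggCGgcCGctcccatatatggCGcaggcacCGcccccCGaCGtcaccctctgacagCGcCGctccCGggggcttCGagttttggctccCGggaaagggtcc
EXOC6, an exocyst subunit gene, plus strand, chr10:92826581-92826830: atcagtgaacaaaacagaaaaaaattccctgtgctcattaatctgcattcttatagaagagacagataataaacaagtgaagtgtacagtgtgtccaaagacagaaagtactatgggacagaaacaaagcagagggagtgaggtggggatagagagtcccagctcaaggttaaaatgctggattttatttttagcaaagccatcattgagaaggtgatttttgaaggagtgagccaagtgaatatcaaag
SORCS1, a sorting receptor gene, minus strand, chr10:107164707-107164956: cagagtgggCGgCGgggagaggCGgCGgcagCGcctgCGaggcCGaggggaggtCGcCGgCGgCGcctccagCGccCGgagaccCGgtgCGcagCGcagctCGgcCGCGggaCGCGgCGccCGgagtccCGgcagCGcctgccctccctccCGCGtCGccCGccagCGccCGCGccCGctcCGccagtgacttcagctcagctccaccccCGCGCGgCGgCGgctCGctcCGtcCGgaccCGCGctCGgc
EBF3 has 46 CpG in its window and SORCS1 has 45, whereas EXOC6 has 0. In A375, EBF3 was at 49.6, 43.7 and 42.3 CPM in the parental and 27.1, 23.4 and 26.3 CPM in the resistant libraries. EXOC6 was at 27.8, 31.1 and 28.5 CPM and then 22.6, 20.8 and 25.1 CPM. SORCS1, with nearly as many CpG as EBF3, was at 17.6, 9.50 and 8.21 CPM in parental and 24.2, 18.4 and 23.0 CPM in resistant libraries. The direction in each of the 3 genes was fixed by how it was picked. EBF3 and SORCS1 each hold a GC box in these windows, and EXOC6 holds none of the motifs counted next. Sorted by CpG count into 3 groups of 67 promoters each from KCNMA1 on, the members had median log2 changes of -0.54, -0.54 and -0.62.

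Motifs were counted on both strands of the same 250 bases, and a match is a description and not a bound site. The GC box GGGCGG was present in 59.8% of promoters from AP3M1 on, in 64.9% of those before it and in 42.3% of all, a set not filtered on gene type or expression. The ETS motif CCGGAAG was present in 11.5%, 14.4% and 8.82%, the CCAAT box (letters CCAAT) in 34.4%, 33.5% and 33.0%, and the TATA box (letters TATAAA) in 5.26%, 6.38% and 11.1%. None of these 4 motifs contains another as printed. From KCNMA1 on, the 121 members with a GC box had a median log2 change of -0.56 in A375 and the 80 without it -0.55. The 24 with the ETS motif had -0.53 and the 177 without it -0.57.

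Resistant A375 cells carried less mRNA of nearly all members from AP3M1 to CYP2E1. From KCNMA1 on, the median changes of consecutive blocks were of like size. Change is the mean of log2(CPM + 0.25) over the 3 resistant libraries minus that over the 3 parental ones. Its median over the 243 members was -0.55, a fold of 0.683, with the middle 50% of members between -0.74 and -0.40. Of these members, 227 had a change below 0. In 208 members every resistant library was below every parental library, in 12 every resistant library was above, and in 23 the groups overlapped. As background, edgeR's quasi-likelihood test (adjusted p below 0.05 over all 18086 genes tested in A375) called 28.3% of genes, 14.8% lower and 13.4% higher in resistant cells. Before AP3M1 the median over 218 members was 0.03, with 93 members below 0, 36 apart and lower, 40 apart and higher and 142 overlapping. The short arm (110 members, 0.02) and the part of the long arm before AP3M1 (108 members, 0.03) had like medians. Over the 15135 genes of at least 1 CPM in A375 the median was 0.01, and over 12093 protein-coding genes of other chromosomes it was 0.02. Of the latter, 21.8% were apart and lower and 25.4% apart and higher.

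Each library placed the stretch the same way. Relative to the parental mean, the median over the 243 members was 0.02, -0.01 and 0.00 in the parental libraries of A375. In its resistant libraries it was -0.57, -0.55 and -0.54. The resistant mean was -0.55 ± 0.014 (SD, n = 3). Members from AP3M1 on took 1.67%, 1.63% and 1.63% of all counts in the parental libraries and 1.10% in each of the 3 resistant libraries. Members before AP3M1 took 1.38%, 1.39% and 1.43% in parental and 1.42%, 1.41% and 1.44% in resistant libraries. In CHL1 the share from AP3M1 on was 1.33% ± 0.00943 and 1.34% ± 0.0107 (SD, n = 3), with resistant medians of 0.05, 0.04 and 0.07.

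**Figure D1:**
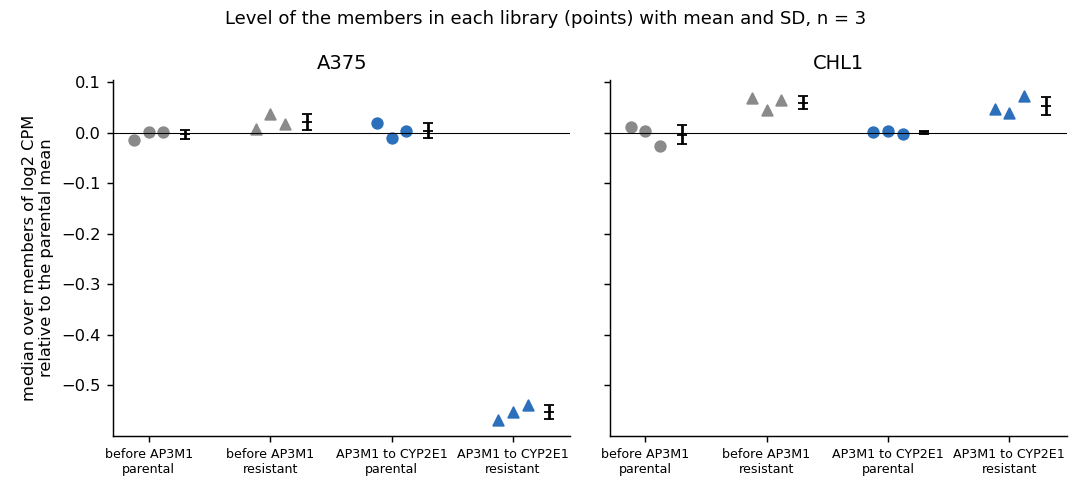
Median over members of log2 CPM relative to the parental mean (y axis) in each library, for members before AP3M1 (grey) and from AP3M1 to CYP2E1 (blue), parental as circles and resistant as triangles, with bars for mean and SD over n = 3. The 3 resistant A375 libraries lie between -0.57 and -0.54 for AP3M1 to CYP2E1, and the other groups in both lines lie near 0.

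The lower levels did not begin at AP3M1 but a few genes further along. The first 8 members, AP3M1 to LRMDA, had a median change of -0.06. AP3M1 itself (ENSG00000185009), a subunit of the AP-3 adaptor that sorts cargo to lysosomes and melanosomes, was at 50.3, 52.1 and 49.0 CPM in parental and 63.3, 64.0 and 63.6 CPM in resistant A375. Its groups were apart in the direction opposite to the stretch, with a change of 0.33. ADK, the adenosine kinase gene, was apart and lower (-0.43), while the histone acetyltransferase gene KAT6B (-0.02), COMTD1 (-0.11) and LRMDA (-0.10) overlapped. SAMD8 was at -0.12, the mitochondrial channel gene VDAC2 at 0.08 and the zinc finger gene ZNF503 at 0.15.

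From KCNMA1 on the picture differed. KCNMA1 (ENSG00000156113), the BK potassium channel gene, was at 37.0, 39.5 and 44.1 CPM in parental and 25.5, 34.9 and 29.8 CPM in resistant libraries. DLG5 (ENSG00000151208), a polarity scaffold gene, was at 92.7, 80.5 and 97.5 CPM and then 54.7, 55.4 and 57.7 CPM. Neither gene's groups overlapped, with changes of -0.42 and -0.68. The RNA polymerase III subunit gene POLR3A (-0.34), the ribosomal protein gene RPS24 (-0.62), ZMIZ1 (-0.53) and the cyclophilin gene PPIF (-0.64) followed. On the other side of AP3M1 the last 5 members before it were ZSWIM8 (0.18), NDST2 (0.00), CAMK2G (-0.06), the urokinase gene PLAU (-0.42, at 1.30 ± 0.36 and 0.894 ± 0.141 CPM with overlapping groups) and the vinculin gene VCL (0.32). The expression threshold was also close for some genes. GSTO2, NUTM2E and CALHM3 lay just above it, with means of 1.03, 1.05 and 1.06 CPM and changes of -0.89, -0.47 and -0.66. Their resistant means were 0.647, 0.833 and 0.771 CPM, so they passed through their parental means. KCNIP2, ANKRD2 and NEURL1 lay just below the threshold at 0.858, 0.899 and 0.983 CPM, with changes of -0.76, -1.10 and -1.10.

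**Figure D2:**
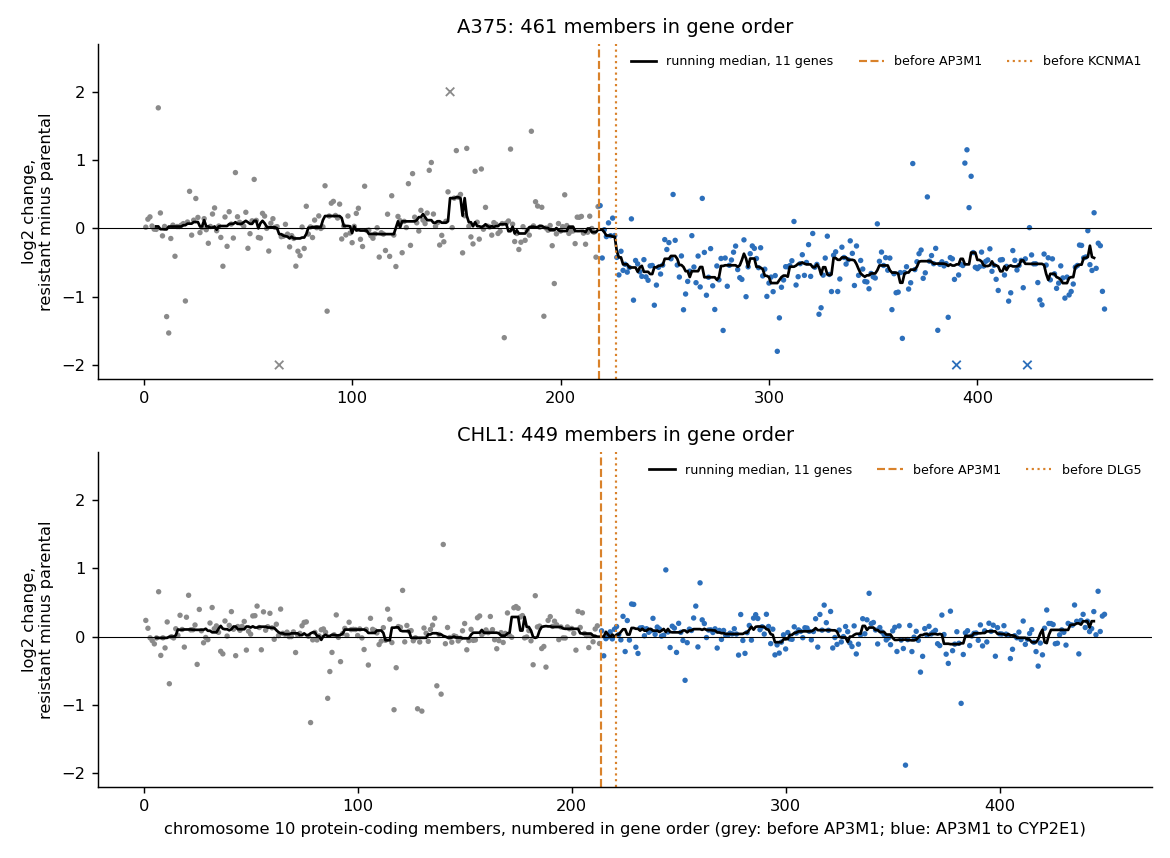
Log2 change, resistant minus parental (y axis), of each chromosome 10 member in gene order (x axis) in A375 and CHL1, with the median of 11 neighbouring members as a line; crosses are members beyond the plotted range. In A375 the line drops below -0.3 at KCNMA1 and stays low for nearly all of the rest, and in CHL1 it stays between -0.11 and 0.29.

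A running median over 11 members gave the profile. It was below -0.3 in 229 of the 238 windows centred from AP3M1 on, the first of them centred on KCNMA1, and in 0 of the 213 windows before AP3M1. Its lowest value was -0.80, over the members from CTBP2 to EBF3 near the end of the arm. Counted from KCNMA1, a start chosen after the values were seen, there were 235 members with a median change of -0.56 (fold 0.680), 222 of them below 0. Cut into 4 consecutive blocks, KCNMA1 to TM9SF3, PIK3AP1 to MFSD13A, ACTR1A to CACUL1 and NANOS1 to CYP2E1, the medians were -0.55, -0.56, -0.55 and -0.55. Split into 3 groups by mean CPM, which is not corrected for gene length, they were -0.57, -0.54 and -0.57, while the spread narrowed with level: the middle 50% spanned 0.59 in the lowest group, 0.31 in the middle one and 0.22 in the highest. By size of change, 21 members were below -1, 27 between -1 and -0.8, 151 between -0.8 and -0.3, 23 between -0.3 and 0 and 13 at or above 0. Of the 180 with at least 10 CPM, 176 were below 0.

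All 461 A375 members were tested with edgeR, in which 28.3% of all genes were called. From AP3M1 on, 202 of 243 were called lower, 8 higher and 33 were not called, and before AP3M1 21 of 218 were called lower and 26 higher. The choice of the stretch used this contrast, so nothing is read from these counts.

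Signalling genes of the stretch were lower by different amounts. SHOC2, a scaffold that activates RAF kinases, was at 60.8, 58.9 and 57.3 CPM in parental and 40.7, 41.9 and 40.8 CPM in resistant A375, with no overlap. The ERK phosphatase gene DUSP5 was at 25.7, 30.8 and 30.5 CPM in parental and 15.1, 19.7 and 17.4 CPM in resistant libraries, a fold of 0.602. FGFR2, a receptor tyrosine kinase gene, was low in A375 (1.60 and 1.11 CPM, overlapping), but lay at 129 to 137 CPM across all 6 CHL1 libraries. The 16 members with roles in PI3K and receptor kinase signalling had a median change of -0.72, beside -0.55 over the stretch and 0.01 over all genes, and 15 of them were below 0, GFRA1 being the exception.

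In the Hedgehog, BMP and WNT pathways SUFU (ENSG00000107882), which holds GLI factors inactive, was at 60.2, 52.0 and 50.8 CPM in parental and 32.7, 28.9 and 33.0 CPM in resistant A375. All 3 resistant values were far below the parental ones, a fold of 0.583. The BMP receptor gene BMPR1A was at 41.2 ± 2.06 and 28.2 ± 1.17 CPM and TCF7L2 at 68.6 ± 7.17 and 46.7 ± 1.17 CPM (SD, n = 3), folds of 0.686 and 0.683. Of 10 members of these pathways 9 were below 0 (median change -0.55), the homeobox gene HHEX being the exception. HHEX was at 18.9, 21.0 and 19.5 CPM in parental and 27.3, 24.3 and 29.3 CPM in resistant libraries.

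The NF-kB and survival group had a median of -0.46 over 7 members, 6 of them below 0. The 4 members of the same list before AP3M1 (IL15RA, OPTN, AIFM2 and DDIT4) were all below 0 as well, with a median of -0.68, so this group was not lower in the stretch alone. CHUK (ENSG00000213341) was at 76.5, 83.7 and 78.7 CPM in parental and 57.5, 56.3 and 53.0 CPM in resistant cells, with no overlap. NFKB2 was closer, at 61.2 ± 4.45 and 54.0 ± 5.79 CPM (SD, n = 3), with groups just apart (change -0.18). The translation inhibitor gene PDCD4 (-0.48) and the co-chaperone gene BAG3 (-0.46) lay near the median of the stretch, and both varied between libraries. BAG3 was at 176, 132 and 171 CPM in parental and 130, 100 and 118 CPM in resistant libraries. PDCD4 was at 69.5, 57.6 and 63.8 CPM and then 54.4, 40.4 and 42.5 CPM. The actin gene ACTA2, the member above 0, was at 8.14 ± 0.365 and 11.6 ± 1.38 CPM (SD, n = 3).

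Chromatin and transcription genes included the 2 Polycomb subunit genes PCGF5 and PCGF6. PCGF5 (ENSG00000180628) was at 48.1, 46.0 and 48.9 CPM in parental and 25.9, 25 and 22.3 CPM in resistant A375, a fold of 0.514. PCGF6 was at 27.0 ± 2.43 and 18.4 ± 0.948 CPM (SD, n = 3), a fold of 0.686, so the pair differed in size but not in direction. The corepressor gene CTBP2 (-0.45), the MYC antagonist gene MXI1 (-0.37) and the coactivator gene ZMIZ1 (-0.53) were apart and lower. ZMIZ1 varied widely within each group, from 122 to 183 CPM in parental and from 90.2 to 119 CPM in resistant libraries. Of 15 members of the list 14 were below 0 (median -0.43).

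Genes for chromosome structure and DNA repair had a median of -0.55, and all 14 list members were below 0. SMC3 (ENSG00000108055), a core cohesin subunit, was at 188, 197 and 193 CPM in parental and 123, 126 and 118 CPM in resistant cells. WAPL, which releases cohesin from DNA, was at 124 ± 2.94 and 84.8 ± 1.22 CPM (SD, n = 3). MGMT (ENSG00000170430), which removes alkyl groups from guanine in DNA, was at 10.6, 9.01 and 10.1 CPM and then 5.01, 5.27 and 4.97 CPM. In all 3 genes every resistant library was below every parental one, and the fold of MGMT was 0.527.

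Most listed translation and metabolism genes of the stretch were lower, the panel genes EIF3A, PRDX3 and GLUD1 with little spread between libraries. EIF3A (ENSG00000107581), the largest subunit of the translation factor eIF3, was at 694, 717 and 693 CPM in parental and 498, 515 and 514 CPM in resistant A375, a fold of 0.726. The mitochondrial peroxidase gene PRDX3 was at 282, 292 and 281 CPM and then 192, 198 and 197 CPM. GLUD1 (ENSG00000148672), glutamate dehydrogenase, was at 208, 225 and 221 CPM and then 148, 145 and 148 CPM. In each of these genes the spread within a group was small beside the gap between groups. Lists of the stretch gave medians of -0.45 for RNA processing and translation (11 of 12 below 0), -0.62 for mitochondria (18 of 18), -0.56 for metabolic enzymes (16 of 17), -0.61 for vesicle traffic (14 of 15), -0.48 for cytoskeleton, adhesion and matrix (13 of 14) and -0.52 for folding and the ubiquitin system (9 of 10). ADAM12, a metalloprotease gene of the matrix list, was at 9.46 ± 0.584 and 5.70 ± 1.2 CPM (SD, n = 3).

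**Figure D3:**
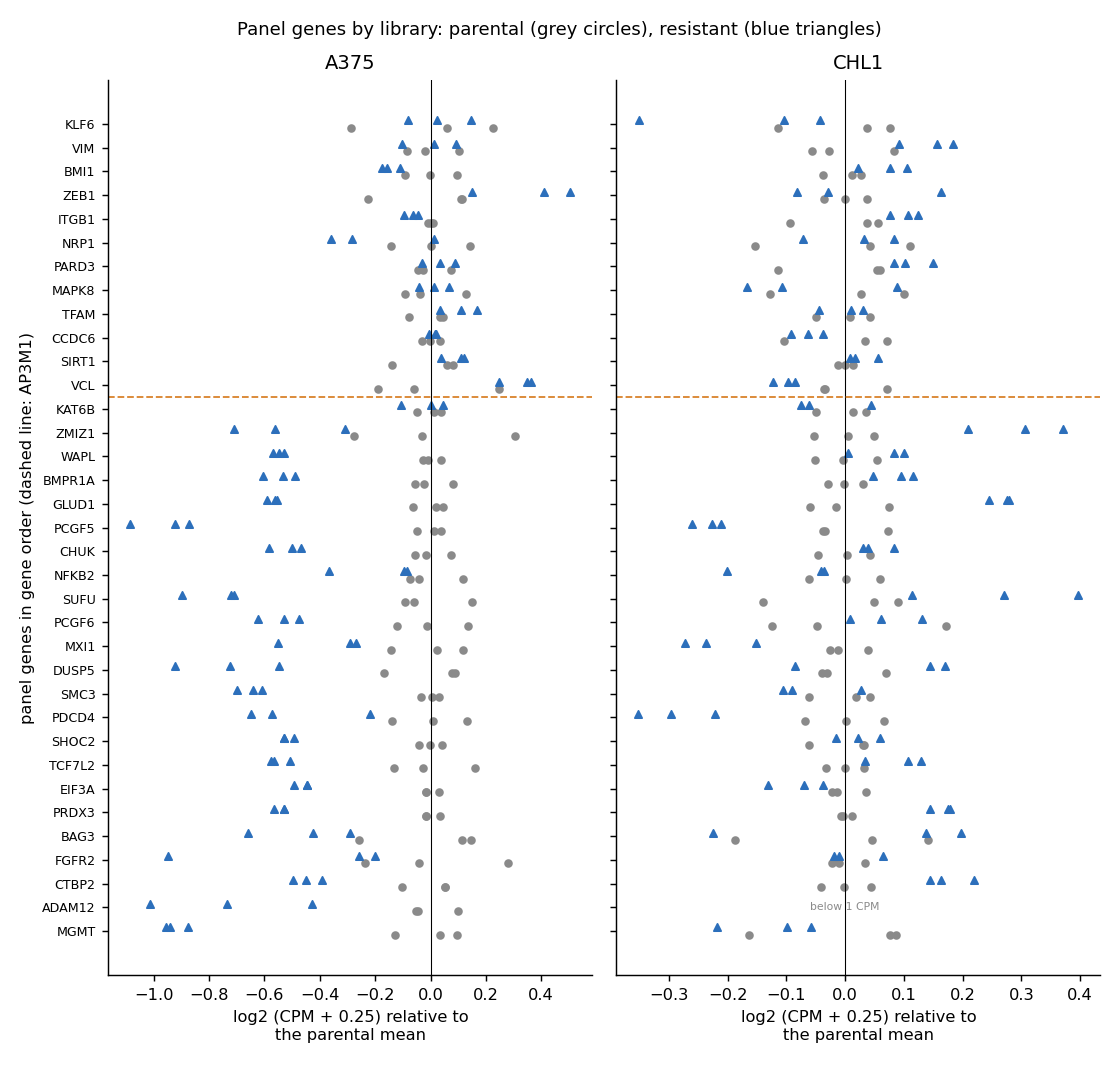
Log2(CPM + 0.25) of 35 panel genes in each library relative to the parental mean of the gene (x axis), in gene order (y axis), parental as grey circles and resistant as blue triangles, with AP3M1 as the dashed line. In A375 the resistant libraries lie left of 0 for nearly every gene below the line but KAT6B, and in CHL1 they lie on either side.

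Panel genes before AP3M1 did not share the shift. VIM, the vimentin gene, was at 3161 ± 209 CPM in parental and 3162 ± 212 CPM in resistant A375 (SD, n = 3). The integrin gene ITGB1 was at 529 ± 2.83 and 504 ± 8.64 CPM (SD, n = 3), apart but with a change of only -0.07. PARD3, KLF6, MAPK8, SIRT1, TFAM and CCDC6 overlapped, with changes between 0.01 and 0.10. ZEB1, a repressor of epithelial genes, was apart and higher (41.9, 33.2 and 42 CPM, then 55.2, 43.0 and 51.6 CPM), the Polycomb gene BMI1 was apart and lower (-0.15) and the semaphorin receptor gene NRP1 overlapped (-0.21).

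Some members from AP3M1 on were lower by far more than the median. AFAP1L2 (ENSG00000169129), an adaptor of SRC family kinases, was at 31.8, 19.8 and 18.0 CPM in parental and 5.01, 2.38 and 4.48 CPM in resistant A375, a fold of 0.177. LOXL4 (ENSG00000138131), a lysyl oxidase that crosslinks matrix, was at 341, 141 and 194 CPM and then 97.5, 33.3 and 67.2 CPM. Neither pair of groups overlapped, although LOXL4 varied more than 2-fold within each group. PDLIM1 (-1.49), PYROXD2 (-1.31), CALHM2 (-1.19), the phospholipase gene PLCE1 (-1.19) and the sideroflexin gene SFXN3 (-1.16) were also apart and lower, while ANKRD1 (-1.19) overlapped between 21.2 CPM in its lowest parental and 23.0 CPM in its highest resistant library. Among members below 10 CPM, DMBT1 was at 3.33 ± 1.62 and 0.341 ± 0.0406 CPM (SD, n = 3).

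The 13 members from KCNMA1 on that were not lower numbered 3, 1, 7 and 2 in the 4 consecutive blocks, most of them in the block ACTR1A to CACUL1. SORCS1 (0.95), ACTA2 (0.50) and HHEX (0.44) were the highest with at least 10 CPM, and GFRA1, the co-receptor of GDNF, went from 0.780 ± 0.12 to 2.04 ± 0.266 CPM (SD, n = 3). ATRNL1, GFRA1, HSPA12A and C10orf82, which are near one another in gene order, had changes of 0.96, 1.15, 0.76 and 0.30. RBM20 (0.46), FUOM (0.23), EIF5AL1 (0.14), DNMBP (0.10), AS3MT (0.07) and CUZD1 (0.01) made up the rest, and groups of CUZD1, AS3MT, FUOM and C10orf82 overlapped. EIF5AL1 is a near-identical retrocopy of EIF5A, which lies on chromosome 17 and had a change of 0.14, so its reads may be shared.

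In CHL1 the members lay near 0. The median change was 0.06 over the 236 members from AP3M1 on and 0.06 over the 213 before it, beside 0.02 over all 14478 genes of at least 1 CPM. Of 17219 genes tested in CHL1 with edgeR, 21.2% were called, 12.1% lower and 9.11% higher in resistant cells. All 449 members were tested. From AP3M1 on 24 (10.2%) fell, 32 (13.6%) rose and 180 were not called, and before AP3M1 21 (9.86%) fell, 30 (14.1%) rose and 162 were not called. The 56 calls from AP3M1 on became 36 without parental replicate 1, 34 without parental replicate 2 and 36 without resistant replicate 3. Of 217 members of both lines from KCNMA1 on, 191 were apart and lower in A375. In CHL1 29 of these 191 were apart and lower, 60 apart and higher and 102 overlapped. Over all CHL1 genes of at least 1 CPM, 19.6% were apart and lower and 21.1% apart and higher. Over the 236 members from AP3M1 on these shares were 16.1% and 29.2%, and over the 213 before it a like 13.1% and 27.7%.

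Several genes that were lower in resistant A375 rose in resistant CHL1. GLUD1 rose from 134, 126 and 122 CPM to 150, 154 and 154 CPM, by 0.25 ± 0.0444 on the log2 scale (edgeR adjusted p = 0.00176). Here and below, ± after a log2 change tested with edgeR is its standard error, derived from the F statistic, and not an SD. ZMIZ1 rose from 82.3, 85.7 and 88.4 CPM to 111, 106 and 98.9 CPM (edgeR adjusted p = 0.00328). AFAP1L2 rose from 20.1, 18.5 and 21.4 CPM to 27.6, 25.7 and 24.5 CPM (edgeR adjusted p = 0.00544), with no overlap in any of these 3 genes. SUFU rose by 0.25 ± 0.0821 (edgeR adjusted p = 0.0479), a call lost in 4 of 6 leave-one-out fits (those without resistant 2 or 3, or parental 1 or 2). CTBP2 rose by 0.16 and PRDX3 by 0.15 (edgeR adjusted p = 0.0255 and 0.0159), calls lost, for CTBP2, when parental 1, resistant 2 or resistant 3 was left out and, for PRDX3, when parental 2 was.

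The other calls of the panel in CHL1 were falls. PDCD4 fell from 25.3, 23.0 and 24.2 CPM to 18.9, 19.6 and 20.7 CPM (edgeR adjusted p = 0.00671), and PCGF5 from 46.7, 50.4 and 46.6 CPM to 39.9, 40.9 and 41.3 CPM (edgeR adjusted p = 0.0061). These 2 genes were thus apart and lower in both resistant derivatives. MXI1 fell by 0.24 on the log2 scale (edgeR adjusted p = 0.0321), but was not called with DESeq2 or in any leave-one-out fit other than the one without resistant replicate 1. CHUK (0.04), NFKB2 (-0.11), TCF7L2 (0.08), BMPR1A (0.07), SHOC2 (0.01), SMC3 (-0.07), WAPL (0.05), EIF3A (-0.09), MGMT (-0.14), DUSP5 (0.07), BAG3 (0.03), PCGF6 (0.05), FGFR2 (change 0.01) and KAT6B (-0.04) were not called, and ADAM12 was below 1 CPM.

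Among called members from AP3M1 on with at least 10 CPM in a CHL1 group, those with the largest changes were mostly outside the panel, and SORCS1 and HHEX, below that level, are given for their A375 values. GFRA1 (ENSG00000151892) fell from 35.3, 29.2 and 28.7 CPM to 18.0, 13.7 and 15.3 CPM (edgeR adjusted p = 4.94e-05). The G protein-coupled receptor kinase gene GRK5 fell from 213, 216 and 207 CPM to 164, 179 and 179 CPM (edgeR adjusted p = 0.000515). SORCS1 (ENSG00000108018), which was higher in resistant A375, fell in CHL1 from 5.17, 5.01 and 4.45 CPM to 0.978, 1.18 and 1.27 CPM (edgeR adjusted p = 2.65e-06). GFRA1 and SORCS1 thus moved against their A375 direction. ADK (-0.30) and PLPP4 (-0.34) fell as well, the latter call being lost when parental 2 or 3 or resistant 1 or 2 was left out. SFXN2 rose by 0.63 ± 0.113, the methyltransferase gene EEF1AKMT2 by 0.38, the nucleoplasmin gene NPM3 by 0.36 and FUOM by 0.36. HHEX, higher in A375, rose here by 0.46 ± 0.119 (edgeR adjusted p = 0.0162), a call lost with DESeq2 and when parental 2 or resistant 2 was left out. LOXL4 (-0.29) and PDLIM1 (-0.18), far lower in A375, fell with adjusted p of 0.038 and 0.0372 in edgeR, calls that DESeq2 did not make and that held, of the leave-one-out fits, only in the one without parental replicate 3. PDLIM1 was also not called without a filter on low counts.

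By function, the CHL1 calls from AP3M1 on went in both directions, and are to be read beside the 12.1% lower and 9.11% higher of all genes tested. Of 18 mitochondrial members 4 rose and 1, PPIF, fell, and of 15 chromatin members 5 rose and 3 fell. The 15 signalling members had 1 rise and 3 falls, the 15 vesicle members 2 and 3, the 12 cytoskeleton and matrix members 3 and 2 and the 17 metabolic members 2 and 2. Among the 14 genes of chromosome structure and repair 3 rose, among the 10 of WNT, Hedgehog and BMP 2, and among the 10 of folding and ubiquitin 1, while 1 of the 7 NF-kB and survival members fell. Of 12 RNA processing and translation members 0 were called by edgeR, 0 had an unadjusted p below 0.05 and 0 were called by DESeq2. List medians ran from 0.02 to 0.13.

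Before AP3M1 CHL1 genes changed in both directions as well. CXCL12 (ENSG00000107562), a chemokine gene, fell from 295, 295 and 291 CPM to 130, 138 and 151 CPM (edgeR adjusted p = 8.58e-08), while in A375 it was near 0. GPR158 fell by 1.30, VSTM4 by 1.08, the WNT inhibitor gene DKK1 by 0.86 and JCAD by 0.38 on the log2 scale. ITIH5 rose from 1589 ± 35.5 to 2421 ± 191 CPM (SD, n = 3), and ADARB2 (0.65), MINDY3 (0.43), TSPAN15 (0.43) and SEC61A2 (0.42) rose too.

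Before AP3M1 in A375, the 3 lowest and 3 highest changes among members of at least 10 CPM in a group were as follows. AKR1C2 (-1.53) and AKR1C1 (-1.29), aldo-keto reductase genes with near-identical sequences whose reads may be shared, and the immune checkpoint gene VSIR (-1.29) were apart and lower. The hexokinase-like gene HKDC1 (1.16), the polyadenylation factor gene CSTF2T (0.96) and the sarcomere gene MYPN (0.87) were apart and higher. CSTF2T was at 44.3, 45.6 and 44.3 CPM in parental and 87.4, 88.5 and 86.6 CPM in resistant cells, with very little spread. In CHL1, HKDC1 rose by 0.45 (edgeR adjusted p = 0.0477, overlapping groups, lost with DESeq2 and when replicate 2 or 3 of either group was left out) and CSTF2T was not called (0.02). The highest running median before AP3M1, 0.46, covered the 11 members from TFAM to EGR2, chosen after their values were seen. The transporter gene SLC16A9 went from 0.470 ± 0.379 to 2.81 ± 0.2 CPM and RHOBTB1 from 2.00 ± 0.291 to 4.69 ± 0.323 CPM (SD, n = 3), and BICC1 (0.53), RTKN2 (0.50) and ARID5B (0.46) were apart and higher. ANK3 (0.44) and EGR2 (1.17) overlapped, as did TFAM, CCDC6 and ADO, and ZNF365 was apart and lower (-0.36).

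Genes of other kinds in the stretch were not all lower. The 15 genes left out by name had a median change of -0.54 in A375, 14 of them below 0 and 12 apart and lower. FAS, the death receptor gene, was the exception at 15.9 ± 2.2 and 21.5 ± 2.68 CPM (SD, n = 3). Of 16 long non-coding RNA genes from AP3M1 on, 12 were below 0 (median -0.30), 8 apart and lower and 2 apart and higher. Over all A375 genes of at least 1 CPM, 21.9% were apart and lower and 23.6% apart and higher. LINC00857 was at 14.5 CPM in parental and 8.77 CPM in resistant A375. The library kit does not mark strand, so antisense RNAs such as NUTM2B-AS1 (-0.41) cannot be told apart from genes on the other strand.

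Processed pseudogenes, intronless copies of genes from elsewhere in the genome, had a median change of -0.04 over 23, with 3 apart and lower and 4 apart and higher. Over all A375 genes of at least 1 CPM, 21.9% were apart and lower and 23.6% apart and higher, so these counts are not above that background. Source genes could be matched by name for 21 of the pseudogenes, and 0 of these sources lie on chromosome 10. The sources had a median change of 0.00, and 16 of the 21 pairs had the same sign. RPL13AP5 was at 1204 ± 41.9 and 1683 ± 67.4 CPM (change 0.48) beside a change of 0.40 for RPL13A on chromosome 19. RPL21P16 had a change of -0.53 beside -0.58 for RPL21 on chromosome 13, and EIF5AP4 0.17 beside 0.14 for EIF5A. Reads of a pseudogene and its source cannot be told apart where their sequences are near-identical.

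**Figure D4:**
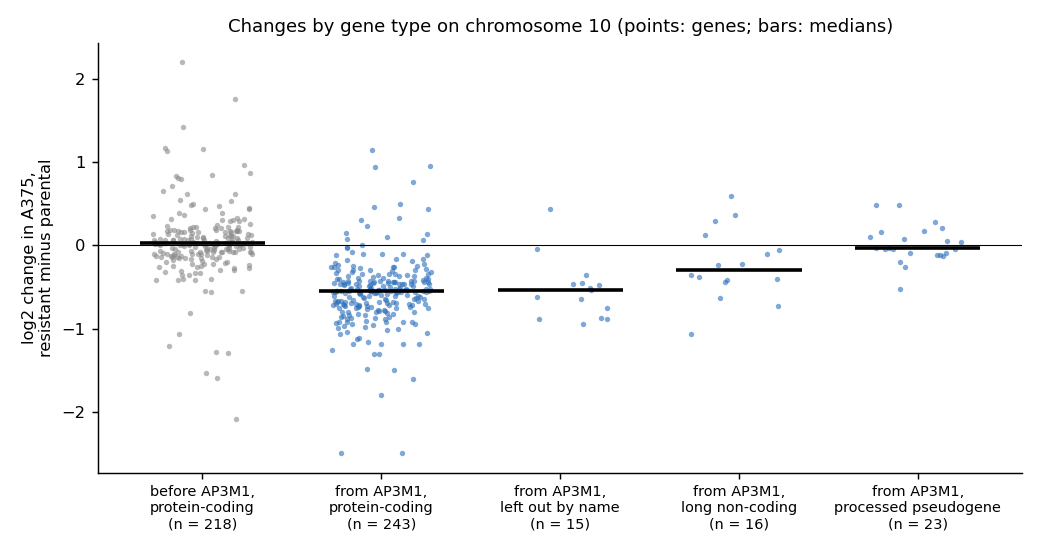
Log2 change in A375, resistant minus parental (y axis), of single genes (points) with medians (bars) by gene type and side of AP3M1 (x axis). Protein-coding members from AP3M1 on (median -0.55) and the 15 genes left out by name (-0.54) lie below 0, and processed pseudogenes lie around it (-0.04).

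Members that belong to protein complexes were set beside partners encoded on other chromosomes, which the choice of members did not use. The complexes were chosen with earlier results of these data known, so the partner calls are not independent evidence. Of 78 partners tested in A375, 11 fell and 8 rose (24.4%, beside 28.3% of all genes), with a median change of 0.04. Beside EXOC6 (-0.35), the 8 exocyst partners lay between 0.00 and 0.07, and 0 were called by edgeR, 0 had an unadjusted p below 0.05 and 0 were called by DESeq2. Beside the E3 ligase gene BTRC (-0.43), the 4 SCF partners lay between -0.07 and 0.09 with the same 3 counts of 0. Beside MCMBP (-0.56), which unloads the MCM helicase, the 6 MCM genes lay between -0.09 and 0.22, with 0 called by edgeR, 1 at an unadjusted p below 0.05 and 1 called by DESeq2. Beside EIF3A, 3 of 12 eIF3 partners rose (the call of EIF3D lost in 5 of 6 leave-one-out fits), among them EIF3K on chromosome 19 (0.38 ± 0.0491, edgeR adjusted p = 0.000618) and EIF3F on chromosome 11 (0.27 ± 0.0531, edgeR adjusted p = 0.00537).

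Called partners went in both directions for cohesin and NF-kB, and in a single direction for the other complexes below. Partners tested numbered 9 beside CHUK and NFKB2, 4 beside AP3M1 and 4 beside ABRAXAS2. There were 7 beside PCGF5 and PCGF6, 5 beside NSMCE4A and 7 beside SHOC2. Beside SMC3 and WAPL, 4 of 12 cohesin partners fell (the call of STAG1 lost in 5 of 6 leave-one-out fits), such as the loader gene MAU2 on chromosome 19 (-0.47), and STAG2 on chromosome X rose from 89.5 ± 3.64 to 133 ± 7.32 CPM (SD, n = 3). Beside CHUK and NFKB2, NFKB1 fell (-0.38) and 3 genes rose, the inhibitor gene NFKBIB by 0.57 (the calls of the other 2, RELB and NFKBIE, each lost in at least 4 leave-one-out fits). Beside AP3M1, AP3S1 fell from 196 ± 16.1 to 84.3 ± 10.8 CPM (SD, n = 3) and AP3S2 by 0.34 on the log2 scale, the latter call being lost when parental 1 or 3 or resistant 1 or 2 was left out. Beside the deubiquitinase scaffold gene ABRAXAS2 (-0.43), BRCC3 on chromosome X (-0.91) and BABAM1 on chromosome 19 (-0.38) fell. AUTS2, a partner of PCGF5, fell from 2.71 ± 1.47 to 0.0581 ± 0.0178 CPM (SD, n = 3). SMC5 rose by 0.18 beside NSMCE4A (-0.54) and PPP1CB fell by 0.16 beside SHOC2, calls that held, of the leave-one-out fits, only in the one without parental replicate 2, and DESeq2 did not call PPP1CB.

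**Figure D5:**
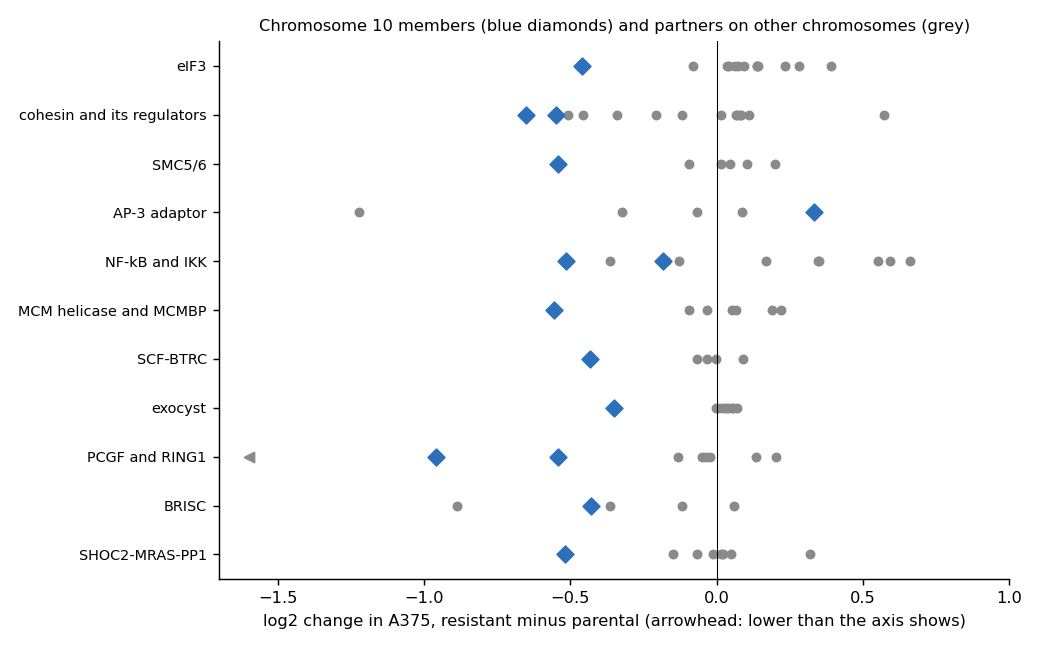
Log2 change in A375, resistant minus parental (x axis), of chromosome 10 members (blue diamonds) and of complex partners on other chromosomes (grey points) for 11 complexes (y axis). The diamonds lie left of 0 except AP3M1 at 0.33, and the partners lie on both sides of 0 with a median of 0.04, the arrowhead being AUTS2 beyond the axis.

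Levels were also compared between the lines over 224 members of both lines from AP3M1 on, as a description. Parental A375 minus parental CHL1 had a median of 0.41 on the log2 scale, beside 0.20 over 201 members before AP3M1 and 0.03 over 11144 protein-coding genes of other chromosomes. Resistant A375 minus parental CHL1 had -0.15, 0.21 and 0.02. From AP3M1 on, 19 members reached 1 CPM in A375 alone and 12 in CHL1 alone. KCNMA1 was at 0.0119 and 0 CPM in parental and resistant CHL1. The homeobox genes HMX3 and HMX2, which neighbour each other, were at 16.5 and 8.58 CPM in parental CHL1. In parental A375 they were at 0.346 and 0.0383 CPM. DPYSL4, at 35.2 ± 1.94 and 41.2 ± 2.02 CPM in CHL1 (SD, n = 3), was at 0.206 and 0.0912 CPM in A375.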

How the data were processed

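RNA of 12 libraries, 3 in each of 4 groups, was analysed. The deposited values are whole-number read counts per Ensembl gene, made by the authors and not normalized, in 1 table per cell line. Tools named in the submitters' processing notes, with no role or order, are HTSeq 0.5, TopHat2, limma, CASAVA 1.8.2 and cutadapt 1.7. The build and annotation used for counting were not given in the sources used here, and no gene coordinates are printed. GENCODE 29 gave gene names, types and order, and RefSeq (GRCh38.p14) the promoters. Total counts of 25398920 to 29812686 per library make 3 counts worth 0.101 to 0.118 CPM. That floor reflects counting error alone, because without molecular identifiers reads can be copies of one molecule.

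The members, gene lists and complexes were chosen with earlier results of these data known, so no list is independent evidence of its direction. CPM was computed from the counts of each library, and changes used a pseudocount of 0.25 CPM. Each line was tested alone with edgeR 4.0.16 in R 4.3.3 (TMM, filterByExpr with a minimum count of 10, quasi-likelihood F-test, two-sided, Benjamini-Hochberg over all genes). DESeq2 1.42.0, other scalings, pseudocounts and filters, the replicate number as a block and leaving out each library were alternatives. The tests were tried on simulated data. Tables and figures used Python 3.11.15, numpy 2.4.6, pandas 2.3.3 and matplotlib 3.10.9.

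Named genes were a panel from AP3M1 on and a panel before it. To these came the 8 lowest and 5 highest A375 changes from AP3M1 on, and the 3 lowest and 3 highest before it, among members of at least 10 CPM in a group. The 5 members on each side of AP3M1, up to 5 called CHL1 members per direction of at least 10 CPM and up to 2 called partners per complex completed them. Other names were chosen after their values were seen. Replicate numbers were not treated as pairs. Some panel genes and a complex are not reported here.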

Additional observations from a re-analysis of the deposited data

Results flagged for a closer look

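Some values moved in one direction in every library of one line and in the opposite direction in every library of the other, and the difference between the lines was not tested. The median log2 change of the members from AP3M1 to CYP2E1 was -0.55 in A375, with all 3 resistant libraries below the parental ones, and 0.0589 in CHL1, with all 3 above. The same opposition was seen in 7 panel genes of the stretch. SUFU was at -0.78 in A375 and 0.26 in CHL1, GLUD1 at -0.57 and 0.27, ZMIZ1 at -0.53 and 0.30, and TCF7L2 at -0.55 and 0.0903. PRDX3 was at -0.54 and 0.17, BMPR1A at -0.54 and 0.0862, and CTBP2 at -0.45 and 0.18. TCF7L2 and BMPR1A were not called in CHL1. Among panel genes before AP3M1, ITGB1 showed it with small values, -0.0684 in A375 and 0.10 in CHL1. Since A375 changes chose the stretch, their direction there was fixed by the choice. In CHL1 the members before AP3M1 had a like median, 0.0575, with all 3 resistant libraries also above the parental ones. The small CHL1 rise was thus not particular to the stretch.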

How the results depend on the processing

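The A375 median from AP3M1 on (-0.55) moved to -0.48 when all 325 genes without a filter on low values were taken, and lay between -0.57 and -0.53 under the other alternatives. The A375 median before AP3M1 was 0.00447 with TMM factors, and the CHL1 mean over members from AP3M1 on was 0.0377. Starting at KCNMA1, an alternative chosen after seeing the data, gave -0.56 in A375 and 0.06 in CHL1. Leaving out 1 library at a time, the medians ranged from -0.565 to -0.548 and from 0.00877 to 0.0313 in A375 from and before AP3M1, and from 0.0445 to 0.0591 and 0.0456 to 0.0698 in CHL1. Counts of calls then ranged from 3782 to 4738 genes, 190 to 200 members from AP3M1 on and 30 to 46 before it in A375, and from 2634 to 3297, 34 to 51 and 39 to 44 in CHL1. The count before AP3M1 in A375 was 47 with all libraries and 30 without resistant replicate 1. An arm left with fewer libraries shares the spread of the others.

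Deviations of same-numbered parental and resistant samples correlated at 0.40, 0.39 and -0.03 in A375 and 0.26, 0.00 and 0.10 in CHL1, and in neither line did every sample correlate best with its own number. With the replicate number as a block, which pairs samples that share only a number, edgeR called 6307 genes in A375 in place of 5111 and 4305 in CHL1 in place of 3645, with 217 and 67 members from AP3M1 on and 66 and 60 before it. Apart from that fit, the median of the 3 same-numbered differences was taken for each gene in place of the difference of means. The medians over members were then -0.55 and 0.02 in A375 from and before AP3M1, and 0.04 and 0.05 in CHL1. Of 879 checks on 80 named genes in CHL1, 832 kept the call, 39 lost it, 8 gained it and 0 reversed. Members near 1 CPM rest on few reads, and their changes spread more than those of well expressed genes.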
